A study of Mus musculus with 6 samples.

Results

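The heat shock and chaperone genes of the aged mouse brain described here are 10 genes, Hspa1a, Hspa1b, Hsph1, Dnajb1, Hspb1, Hsp90aa1, Bag3, Hspa8, Hspa5 and Hsf1, taken by gene symbol from the 38087 genes of the deposited count table. By what is known of them, and not by their values here, 7 were treated as heat-inducible (Hspa1a, Hspa1b, Hsph1, Dnajb1, Hspb1, Hsp90aa1 and Bag3), 2 as constitutive (Hspa8 and Hspa5) and Hsf1 as the regulator. All 10 had enough counts to enter the comparison of Sgo1-/+ with wild-type (WT) brains.

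Chaperones bind unfolded or newly made proteins and keep them from aggregating until they fold or are degraded. When unfolded proteins build up, the transcription factor Hsf1 is released from chaperones, forms trimers and binds heat shock elements, which are inverted repeats of a short unit around the letters GAA, in the promoters of the inducible genes. Neurons are known to carry high levels of constitutive chaperones and to induce the inducible ones weakly, and chaperones of the HSP70 and HSP90 families bind tau and other proteins that aggregate in neurodegeneration.

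RNA came from the brains of 6 mice of the C57BL6 strain, all 24 months old, with 1 library per mouse: 3 WT mice and 3 Sgo1-/+ mice, which carry 1 disrupted copy of Sgo1, the gene for a protector of sister chromatid cohesion. By the study's methods the tissue was the cerebrum, hippocampus included, in which cerebellar, medullary and olfactory bulb RNA should be absent. The mice received no treatment, and only those alive at that age could be sampled. Each group held 1 male (WT replicate 1 and Sgo1-/+ replicate 2) and 2 females, and run 258 held every WT library and run 259 every Sgo1-/+ library, so sequencing run and genotype cannot be told apart. The comparison asks whether chaperone transcripts differ between these genotypes at old age.

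Total estimated counts lay between 11123917 and 12505561 per library. Values of single libraries are given in the order of replicates 1, 2 and 3. Sgo1 itself had estimated counts of 0, 7 and 0 in WT and of 4, 2 and 0 in Sgo1-/+, too few to check the genotype labels. WT replicate 1 stood apart from the other 5 libraries, with a mean correlation across genes of 0.935 with them, against 0.967 to 0.970 for each of the others. Markers of regions that the dissection should leave out were high in it: the summed level of 8 cerebellar granule cell markers was 1367 CPM (counts-per-million) against 99.7 to 188 CPM in the other libraries, and that of 8 Purkinje cell markers 3293 against 1061 to 1380 CPM. All 7 neuron markers, by which the tissue was checked, were measured in each group, at summed levels of 4803 to 8357 CPM in WT and 6965 to 7392 CPM in Sgo1-/+. Fold changes and list medians that WT replicate 1 moved are therefore given with and without it.

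For none of the 10 genes did the difference between Sgo1-/+ and WT pass the test. Under the quasi-likelihood test of edgeR, adjusted by Benjamini-Hochberg over all 16337 genes tested, each of the 10 had an adjusted p of 0.9999, and 0% of all genes passed an adjusted p under 0.05. At an unadjusted p under 0.05 there were 0 of the 10, against 2.04% of all genes. The normalized counts of the groups, which are estimated counts scaled to the libraries' mean size, overlapped for all 10 genes, while they did not overlap for 6.81% of all genes. The median log2 fold change, Sgo1-/+ against WT, was -0.07 over the 7 heat-inducible genes and 0.10 over the 2 constitutive ones, beside -0.0007 over all genes. Without WT replicate 1 these medians were 0.09, 0.23 and 0.0055. A p-value here weighs the difference between the groups, which includes that of the sequencing runs, against the spread between mice. One that misses the threshold does not show that the genotypes were alike, so each difference is given with its 95% interval. In whole tissue, fewer cells of a type and less RNA per cell cannot be told apart.

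**Figure D1:**
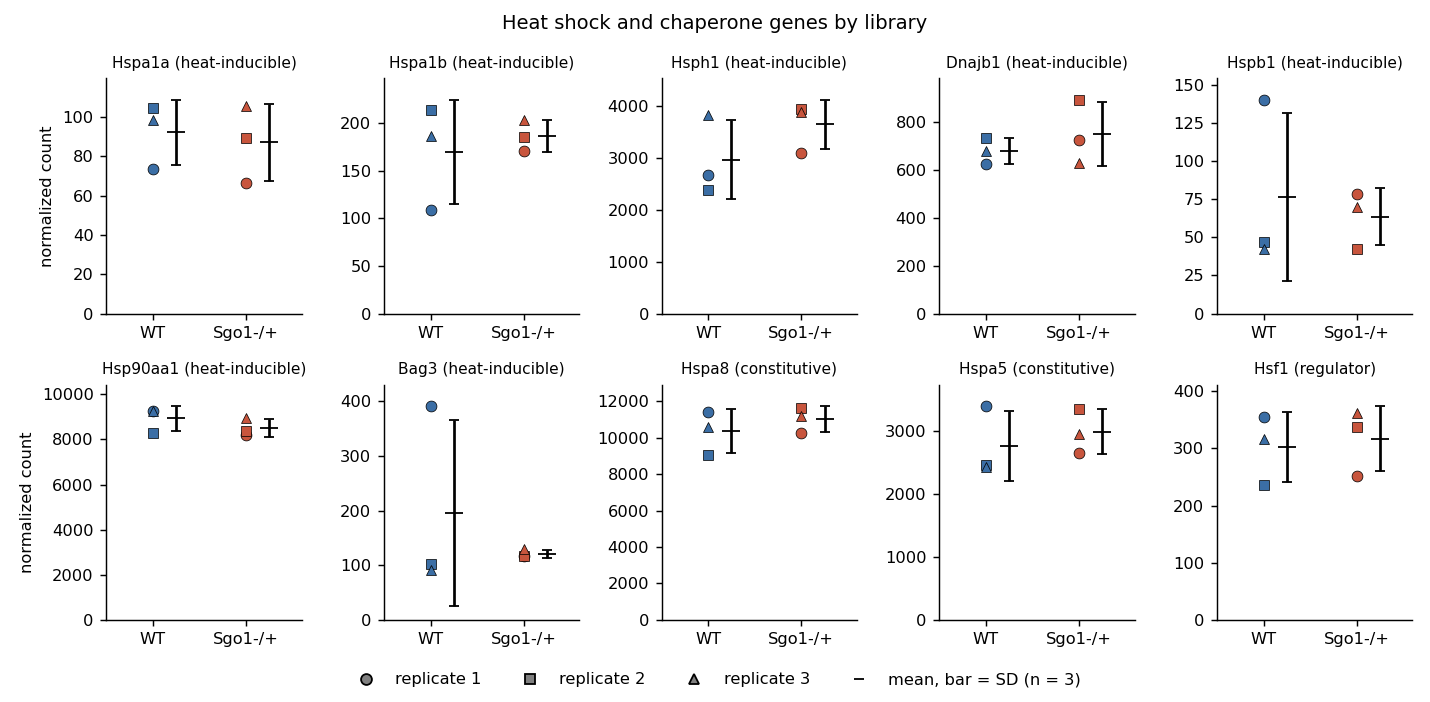
Normalized count (vertical axes, from 0) of each of the 10 genes in the 3 WT and 3 Sgo1-/+ libraries. Each point is 1 mouse, with its replicate number given by the symbol, and the bars are the mean ± SD of 3 libraries. The groups overlap in every panel, and WT replicate 1 lies far above the other 5 libraries for Bag3 (391.7 against 91.3 to 128.9) and Hspb1 (139.98 against 42.6 to 78.5).

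Hspa1a and Hspa1b encode the stress-inducible cytosolic HSP70, and lie side by side on the minus strand of chromosome 17 as single-exon genes (in mm10, chr17:34969199-34972154 and chr17:34956436-34959238). Their coding sequences are 99.6% identical, and 38.1% of the 150-base windows of the Hspa1a transcript, the length of 1 read, occur unchanged in Hspa1b. The counts could thus have been split between them in either direction, and their sum is the safer value. The 250 bases before their start sites, printed because the pair is the textbook case of a heat shock promoter, are identical at 247 positions (98.8%). They come from RefSeq on GRCm38.p6, minus strand, at chr17:34972157-34972406 for Hspa1a and chr17:34959239-34959488 for Hspa1b, and capitals mark the match to a heat shock element of 2 units.
Hspa1a: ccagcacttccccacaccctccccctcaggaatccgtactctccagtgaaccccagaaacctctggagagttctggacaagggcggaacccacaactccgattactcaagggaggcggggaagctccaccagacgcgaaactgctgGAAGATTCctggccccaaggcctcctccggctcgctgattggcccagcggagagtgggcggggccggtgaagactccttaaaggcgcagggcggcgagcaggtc
Hspa1b: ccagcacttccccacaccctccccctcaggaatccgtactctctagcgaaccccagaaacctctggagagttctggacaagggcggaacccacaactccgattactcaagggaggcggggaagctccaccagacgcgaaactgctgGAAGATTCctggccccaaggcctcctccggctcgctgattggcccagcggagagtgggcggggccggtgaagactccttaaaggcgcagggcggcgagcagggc
Counted from 1 at the 5′ end of the Hspa1a sequence, with the base of Hspa1a first, the differences are C44T, T47C and T249G. None of them falls in the capitals.

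Hspa1a had normalized counts of 73.5, 104.7 and 98.4 in WT and of 66.6, 89.2 and 105.4 in Sgo1-/+. Hspa1b had 108.8, 214.2 and 186.7 in WT and 170.9, 185.4 and 203.6 in Sgo1-/+. Replicate 1 was the lowest library of each group for both genes, and the groups lay on top of each other. The log2 fold change was -0.08 for Hspa1a (SE 0.25, 95% interval -0.67 to 0.50) and 0.13 for Hspa1b (SE 0.26, -0.47 to 0.74). Summed, the pair had 262 ± 71.1 normalized counts in WT and 274 ± 35.6 in Sgo1-/+ (SD, n = 3 each), a log2 fold change of 0.06 (-0.48 to 0.60). Hspa1a made up between 28.0 and 40.3% of the summed counts. Gm20481, a gene of the opposite strand named after its values were seen, overlaps 19% of the Hspa1a exon, and whether the counting used the strand is not given in the sources used here. It had between 9.52 and 26.4 normalized counts, below those of Hspa1a in every library.

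Hsph1 and Dnajb1 are cochaperones of HSP70. Hsph1 encodes HSP110, which exchanges the nucleotide of HSP70 and helps it to take aggregates apart. Its normalized counts were 2678, 2382 and 3822 in WT and 3099, 3948 and 3886 in Sgo1-/+. Both high Sgo1-/+ libraries exceeded every WT library, but WT replicate 3 exceeded Sgo1-/+ replicate 1. The log2 fold change was 0.30 (SE 0.20, 95% interval -0.18 to 0.78), the highest of the 10 genes, and did not pass the test (edgeR unadjusted p = 0.186, exact permutation p = 0.2). It was above 0 whichever library was left out, between 0.17 and 0.53. The highest value, without WT replicate 3, had an unadjusted p of 0.016 and an adjusted p of 0.764 in edgeR, in a fit where 6.21% of all genes had an unadjusted p under 0.05.

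Dnajb1 encodes HSP40, the J-domain protein that delivers substrates to HSP70 and starts its ATP hydrolysis. It had normalized counts of 625, 734 and 679 in WT and of 728, 895 and 632 in Sgo1-/+, so 1 Sgo1-/+ library stood above the rest and the remaining 5 were mixed. The log2 fold change was 0.15 (SE 0.15, -0.21 to 0.50), and without that library, Sgo1-/+ replicate 2, it was -0.0036.

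For Hspb1 and Bag3, 1 library lay far above the rest. Hspb1 encodes HSP27 (HSP25 in the mouse), a small heat shock protein that holds unfolded proteins without ATP. Bag3 encodes a cochaperone that couples HSP70 and small heat shock proteins to selective autophagy of aggregates. Bag3 had 391.7, 101.9 and 91.3 normalized counts in WT and 116.2, 117.5 and 128.9 in Sgo1-/+. Hspb1 had 139.98, 46.7 and 42.6 in WT and 78.5, 42.6 and 69.6 in Sgo1-/+. WT replicate 1 was at 3.52 times the mean of the other 5 libraries for Bag3 and at 2.50 times for Hspb1, and 4.14% of all genes were at least 2 times as high there.

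Over the 6 libraries the log2 fold change was -0.69 for Bag3 (SE 0.56, 95% interval -2.01 to 0.63) and -0.26 for Hspb1 (SE 0.51, -1.48 to 0.95), the widest intervals of the 10 genes. Without WT replicate 1 it was 0.32 for Bag3 (SE 0.19, edgeR adjusted p = 0.9995) and 0.51 for Hspb1 (SE 0.33, edgeR adjusted p = 0.9995), so both directions turned. Hspa1b also turned without it, from 0.13 to -0.10, and Hspa1a, Dnajb1 and Hsf1, whose fold changes were near 0, turned without one or another library. The 3 Bag3 values in Sgo1-/+ then all lay above the 2 left in WT, as did those of Hspa5, and the groups of 17.9% of all genes did not overlap in these 5 libraries. Neither gene passed the adjusted threshold there, and 0% of all genes did. WT replicate 1 was the highest library for 28% of all genes, for 3 of 4 tested brain stem markers, 7 of 7 cerebellar granule cell markers and 8 of 8 Purkinje cell markers. It was also the highest for 5 of 6 oligodendrocyte markers. That list summed to 11672 CPM in WT replicate 1, 11011 CPM in Sgo1-/+ replicate 3 and 4424 to 6397 CPM in the other 4 libraries. Sgo1-/+ replicate 3 had normalized counts of 128.9 for Bag3 and 69.6 for Hspb1, against 391.7 and 139.98 in WT replicate 1. Among the 5 libraries other than WT replicate 1, it was the highest for Bag3, but Sgo1-/+ replicate 1 was the highest for Hspb1, at 78.5. Of 6 astrocyte markers 4 were highest in WT replicate 1 (summed at 3470 CPM there and 3601 to 3972 CPM in the others). Of 7 neuron markers 5 were lowest there (4803 CPM there and 6746 to 8357 CPM in the others), as were 30.4% of all genes. The brain stem markers Hoxb5, Hoxb3, Hoxa3 and Hoxc4 had between 51.7 and 401 estimated counts in WT replicate 1 and at most 3 in any other library. No Purkinje cell or oligodendrocyte marker was at 0 in any library. Their part in the values of both genes was not tested.

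The WT male is WT replicate 1, so the sexes were also read apart. In the 4 females alone Hspb1 had a log2 fold change of 0.73 (SE 0.28), the 1 gene of the 10 with an unadjusted p under 0.05, against 3.51% of all genes (edgeR unadjusted p = 0.040, adjusted p = 0.9999). The groups of Hspb1, Bag3 and Hspa5 did not overlap in the females, nor did those of 30.6% of all genes. With 1 male in each group a dependence on sex could not be tested: a fit with an interaction of genotype and sex, in which Hspb1, Bag3 and 3.67% of all genes passed an adjusted p under 0.05 in edgeR, compares single male libraries, and sex and WT replicate 1 cannot be told apart.

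**Figure D2:**
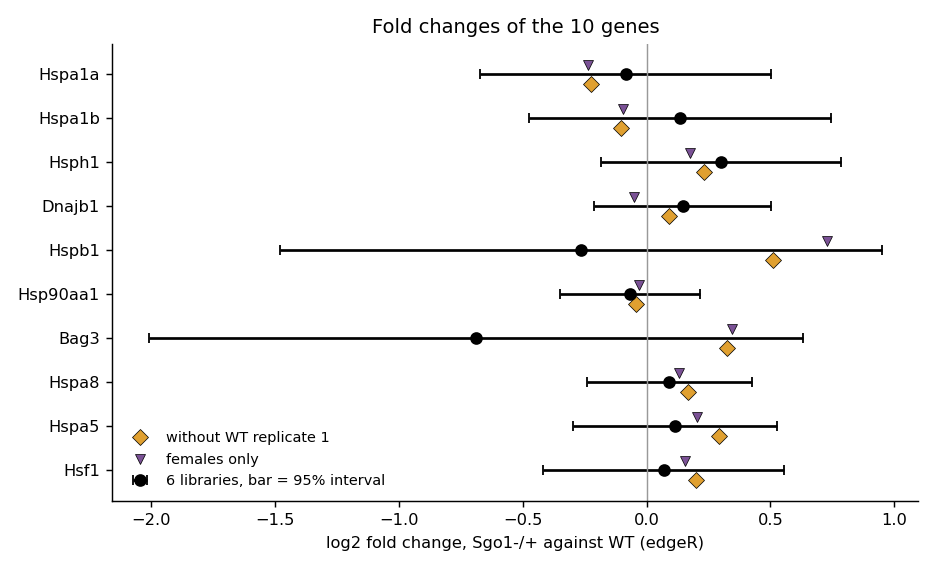
Log2 fold change, Sgo1-/+ against WT, of the 10 genes in edgeR's fit over 6 libraries (circles, bars are 95% intervals), without WT replicate 1 (diamonds) and in the 4 females (triangles), with no intervals drawn for the latter 2 fits. Every bar crosses 0. Bag3 and Hspb1 lie at -0.69 and -0.26 with all libraries and at 0.32 and 0.51 without WT replicate 1.

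Hsp90aa1, the inducible form of the cytosolic HSP90, which matures kinases and steroid receptors, was the least variable of the 10 genes. Its normalized counts were 9262, 8298 and 9241 in WT and 8204, 8394 and 8951 in Sgo1-/+, a ratio of only 1.13 between the highest and the lowest library. The log2 fold change was -0.07 (SE 0.12, 95% interval -0.35 to 0.21), which bounds the fold between 0.784 and 1.16.

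The constitutive chaperones had ratios of 1.29 (Hspa8) and 1.40 (Hspa5) between the highest and the lowest library. The latter was close to the 1.43 of the heat-inducible Dnajb1. Hspa8 encodes HSC70, the HSP70 of unstressed cells, which also strips clathrin from vesicles and drives chaperone-mediated autophagy. It had 11428, 9063 and 10596 normalized counts in WT and 10276, 11652 and 11201 in Sgo1-/+, with the lowest library in WT and the highest in Sgo1-/+ but the rest interleaved. The log2 fold change was 0.09 (SE 0.14, -0.24 to 0.42). The exons of Hspa8, merged over all annotated transcripts into 3 blocks, also overlap the small nucleolar RNA genes Snord14c, Snord14d and Snord14e on the same strand. The overlap covers 6.09% of the merged length, which can include introns of single transcripts.

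Hspa5 encodes BiP, the HSP70 of the endoplasmic reticulum, which is constitutive there and rises in the unfolded protein response rather than on heat shock. Its normalized counts were 3402, 2459 and 2424 in WT and 2647, 3361 and 2960 in Sgo1-/+, so WT replicate 1 was again the highest library. The log2 fold change was 0.11 (SE 0.17, -0.30 to 0.52). Without WT replicate 1 the 3 Sgo1-/+ values all exceeded the 2 WT values, at a log2 fold change of 0.29 (SE 0.12). That was the 1 gene of the 10 with an unadjusted p under 0.05 in this fit, against 3.77% of all genes (edgeR unadjusted p = 0.045, adjusted p = 0.9995).

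Hsf1, the regulator, had 354, 236 and 316 normalized counts in WT and 252, 337 and 361 in Sgo1-/+, an even mixture of the groups. Its log2 fold change was 0.07 (SE 0.20, 95% interval -0.42 to 0.55). Hsf1 activity is set by trimer formation and phosphorylation, which transcript counts do not measure.

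Levels were compared between genes as CPM per kilobase of exon, averaged over the 6 libraries. Exon length merged all annotated transcripts of a gene, which can exceed the length of the RNA present. For Hspa8 the deposited gene ended at base 40805200 of chromosome 9 and the annotated gene at 40810087. Orders and ranks between genes depend on these lengths. Hspa8 (206, between 175 and 224 in single libraries) and Hsp90aa1 (184, between 173 and 195) were the highest and overlapped each other. They ranked 116 and 135 among the 16084 tested genes with a known exon length. Hspa5 followed at 56.3 (47.5 to 66.6), Hsph1 at 37.7 (27.2 to 45.0) and Dnajb1 at 18.5 (16.2 to 23.1), and none of these steps overlapped between libraries. The remaining 5 genes were lower and each overlapped the next of them in the order: Hspb1 at 5.62 (3.42 to 11.2), Hspa1b at 5.27 (3.21 to 6.33), Bag3 at 5.11 (2.95 to 12.7), Hsf1 at 3.61 (2.76 to 4.21) and Hspa1a at 2.50 (1.86 to 2.94). Among the tested genes with a known exon length, Hspb1, Hspa1b and Bag3 lay near the middle, above 53.1, 51.1 and 50.1% of them. The heat-inducible group therefore spanned nearly the whole range, with Hsp90aa1 above 99.2% of these genes and Hspa1a above 32.4%. The places of Hspa1a and Hspa1b rest on their separate counts, which could have been split between them in either direction.

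**Figure D3:**
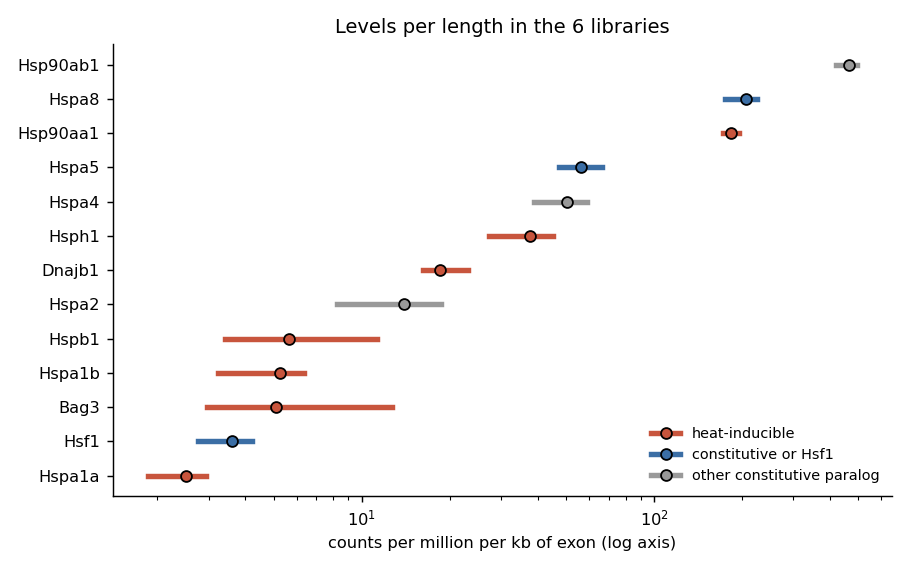
Level per length (CPM per kilobase of exon, log axis) of the 10 genes and of the constitutive paralogs Hsp90ab1, Hspa4 and Hspa2. Points are means of 6 libraries and bars run from the lowest to the highest library. Hsp90ab1 is highest at 465, and Hspa1a lowest at 2.50, by counts that could have been split with Hspa1b in either direction.

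To set chaperones against a constitutive partner of the same library, 6 ratios of levels per length were formed. Their size depends on the merged exon lengths, but their comparison between libraries does not. Hsph1 stood at 63.3, 70.0 and 74.15% of Hspa4, its constitutive HSP110 relative, in WT and at 74.29, 80.8 and 83.1% in Sgo1-/+. The groups did not overlap, although the gap between the nearest libraries was narrow. The means were 69.1 ± 5.48% and 79.4 ± 4.54% (SD, n = 3 each, exact two-sided permutation test p = 0.1, adjusted over the 6 ratios 0.3).

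Hsp90aa1 stood at 46.4, 39.5 and 40.3% of Hsp90ab1, the constitutive HSP90, in WT and at 37.6, 35.7 and 38.5% in Sgo1-/+. All WT libraries were above all Sgo1-/+ libraries, with means of 42.0 ± 3.79% and 37.3 ± 1.41% (SD, n = 3 each, exact two-sided permutation test p = 0.1, adjusted 0.3). With 3 libraries against 3, 0.1 is the smallest p this test can give, so neither ratio could pass a threshold of 0.05. The mean ratio of the inducible to the constitutive form was higher in Sgo1-/+ for HSP110 and lower for HSP90, without passing a test. By their own counts neither Hsph1 nor Hsp90aa1 separated the groups. How often ratios of other genes separate them was not counted.

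For the other 4 ratios the groups overlapped. Hspa1a was between 0.933 and 1.68% of Hspa8, Hspa1b between 1.46 and 3.63%, and Dnajb1 between 7.35 and 10.9%. Hspa5 was between 55.7 and 78.7% of Hsp90b1, the HSP90 of the endoplasmic reticulum, a pair added after values were seen. Hspa2, an HSP70 with high expression in testis that the brain also makes, was at 13.99 CPM per kilobase, above Hspa1a and Hspa1b.

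**Figure D4:**
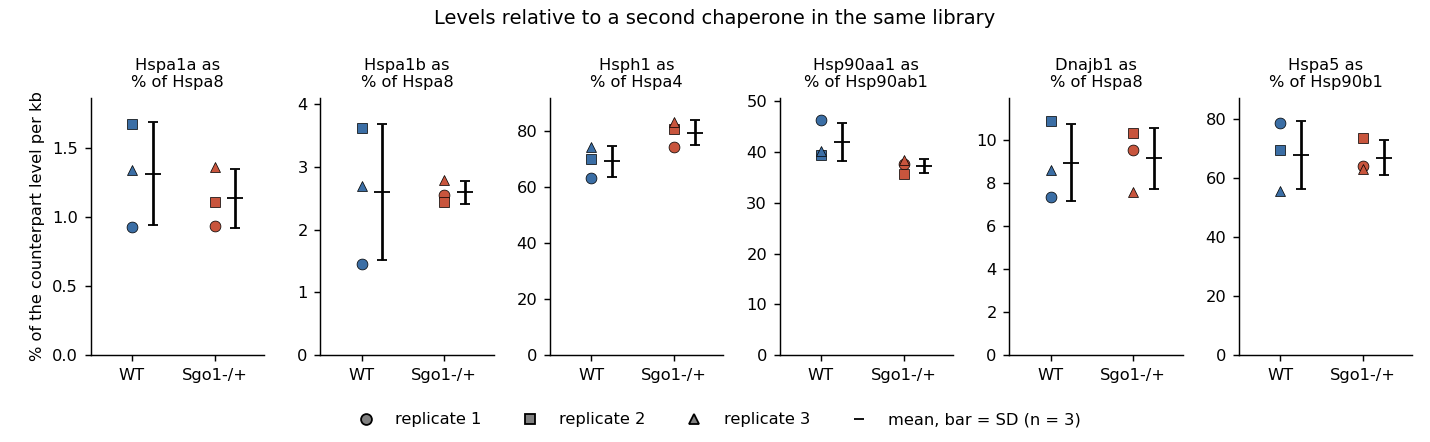
Level of each of 6 chaperones as a percent of a second chaperone in the same library (vertical axes, from 0), both per length. Points are libraries and bars are mean ± SD of 3. The WT and Sgo1-/+ libraries separate for Hsph1 over Hspa4 (69.1 and 79.4%) and for Hsp90aa1 over Hsp90ab1 (42.0 and 37.3%), with an exact permutation p of 0.1 each, and overlap in the other panels.

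Promoters of RefSeq on GRCm38.p6, from 250 bases before to 50 bases after each start site, were found for 7 of the 10 genes, and Hsp90aa1, Hspa8 and Hsf1 had no entry. The heat shock element was searched for on both strands as 3 units, GAANNTTCNNGAA or TTCNNGAANNTTC, and as the looser 2 units, GAANNTTC or TTCNNGAA, which every 3-unit match contains. A 3-unit match was found only in Hsph1, and 0.603% of all 32851 promoters hold one. A 2-unit match was found in Hspa1a, Hspa1b, Hspb1, Hsph1 and Bag3, and 15.1% of all promoters hold one. Dnajb1 and Hspa5 had neither. The endoplasmic reticulum stress element, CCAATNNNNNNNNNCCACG, was found in Hspa5, as in 0.119% of all promoters. A match describes letters in this window only.

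Windows of 30 bases are shown with the match in capitals, as examples of the heat shock element and of the stress element. They are those of Hsph1 (3 units, chr5:149636287-149636316, minus strand), Bag3 (2 units, chr7:128523603-128523632, plus strand) and Hspa5 (stress element, chr2:34772020-34772049, plus strand). The matches lie at bases 37 to 49 after the start site in Hsph1 and 43 to 50 in Bag3, and at -65 to -47 in Hspa5.
Hsph1: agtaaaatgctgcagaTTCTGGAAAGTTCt
Bag3: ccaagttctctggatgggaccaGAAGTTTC
Hspa5: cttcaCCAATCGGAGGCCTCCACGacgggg
For Hspb1, the 250 bases before the start site (chr5:135887669-135887918, plus strand) hold 2 matches of the 2-unit form, at -117 to -110 and -97 to -90.
Hspb1: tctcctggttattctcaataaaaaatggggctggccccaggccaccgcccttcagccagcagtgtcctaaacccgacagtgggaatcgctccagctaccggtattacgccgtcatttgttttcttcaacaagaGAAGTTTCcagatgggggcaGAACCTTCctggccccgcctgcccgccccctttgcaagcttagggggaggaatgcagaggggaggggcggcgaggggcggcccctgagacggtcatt
Among the genes with a 2-unit match, Bag3 and Hspb1 had their highest counts in WT replicate 1. Hspa1a, Hspa1b and Hsph1 were there at 0.792, 0.566 and 0.781 times the mean of the other 5 libraries. A link between these matches and the counts was not tested.

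The wider chaperone network was read from 8 further lists with 104 genes in all, of which 100 were tested. None passed an adjusted p under 0.05 in the same edgeR fit, 1 had an unadjusted p under 0.05 (1%, against 2.04% of all genes), and for 5 the groups did not overlap (against 6.81% of all genes). That 1 gene was Hscb, the mitochondrial J-domain protein that serves iron-sulphur cluster assembly. It had 72.5, 71.4 and 95.4 normalized counts in WT and 60.6, 47.6 and 45.0 in Sgo1-/+, with every Sgo1-/+ library below every WT library, at a log2 fold change of -0.64 (SE 0.24, edgeR unadjusted p = 0.030, adjusted p = 0.9999). Of all genes, 1.23% had an unadjusted p under 0.05 in that direction. The other 4 without overlap were Hsf2 and, named after their values were seen, Sqstm1, Cct6a and Cct8, with log2 fold changes of -0.25, 0.14, -0.05 and -0.11. Without WT replicate 1, 4 genes had an unadjusted p under 0.05 (4%, against 3.77% of all genes): Hscb again at -0.70, and Tnfrsf21, Xbp1 and Ern1, also named after their values were seen, at log2 fold changes of 0.35, 0.33 and -0.62.

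The 22 other heat-inducible genes were split evenly, 11 above and 11 below 0, with a median log2 fold change of 0.00061. Without WT replicate 1, 19 were above 0 and the median was 0.06. Rgs2, a regulator of G-protein signalling, was the farthest from 0 at 0.45 (SE 0.25), with normalized counts of 567, 748 and 782 in WT and 857, 1306 and 694 in Sgo1-/+ that overlapped. Of 24 constitutive cytosolic chaperones, 21 were above 0, all within -0.07 to 0.19 and with a median of 0.05. WT replicate 1 was the lowest library for 13 of the 24, against 30.4% of all genes. Without it 15 were above 0, within -0.18 to 0.38 and with a median of 0.05. Hspa12b, a distant HSP70 relative, was the farthest at 0.19 (SE 0.21), and at 0.38 without that library. None of these genes had an unadjusted p under 0.05 over the 6 libraries.

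In the endoplasmic reticulum list, 10 of 14 chaperones were above 0 (median 0.07; 13 of 14 and 0.13 without WT replicate 1), with Creld2, a secreted target of endoplasmic reticulum stress, the farthest at 0.28 (SE 0.23). In the unfolded protein response list, 7 of 12 were above 0 (median 0.04, and 0.06 without WT replicate 1). Trib3, a target of the transcription factor Atf4, was the farthest at -0.85 (SE 0.50), on normalized counts of only 5.07 to 18.3. Of 9 mitochondrial chaperones 6 were below 0 (median -0.07), but without WT replicate 1 only 4 were, and the median turned to 0.012. Of 14 subunits of the chaperonin TRiC and of prefoldin 12 were below 0 (median -0.05), and 10 without WT replicate 1 (median -0.03). The prefoldin subunit Vbp1 was the farthest at -0.17 (SE 0.14), and at -0.02 without that library.

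Of 5 other small heat shock proteins 2 were tested, and Hspb6, the farther from 0, was at -0.31 (SE 0.27), and at -0.03 without WT replicate 1. Hspb2, Hspb7 and Cryaa had too few counts. Of the 4 genes listed with heat shock factors 3 were tested, and Hsf2, a factor that can form trimers with Hsf1, was at -0.25 (SE 0.11, edgeR unadjusted p = 0.066). Its normalized counts were 315, 344 and 303 in WT and 264, 280 and 265 in Sgo1-/+, with no overlap. The median of the 3 was 0.12, and -0.01 without WT replicate 1. Hsf5 had too few counts.

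**Figure D5:**
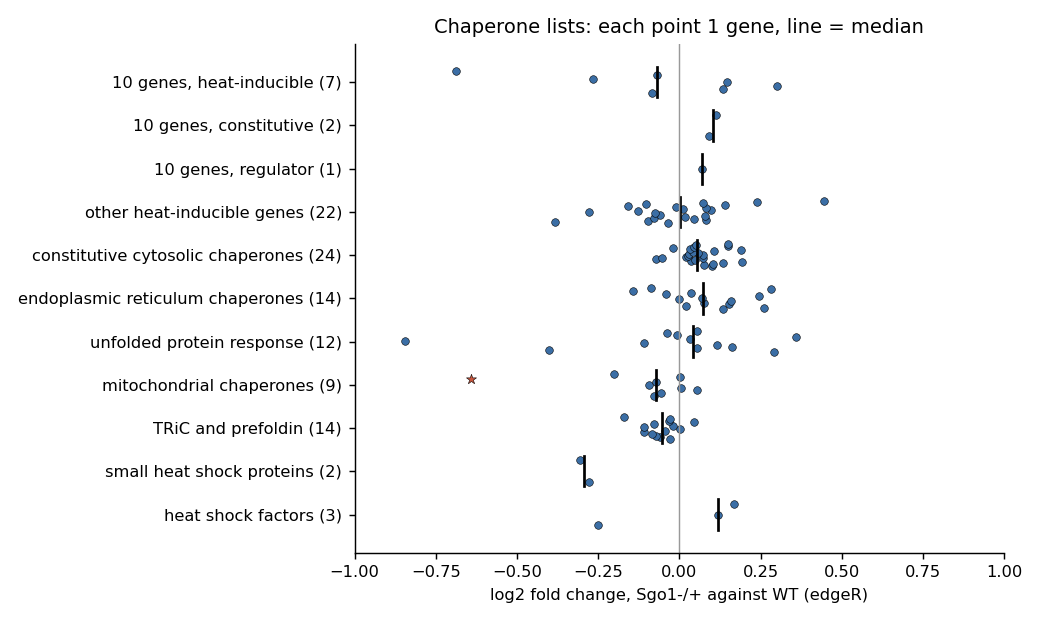
Log2 fold change, Sgo1-/+ against WT (horizontal axis, edgeR), of every tested gene of the 10 and of the 8 further lists, with the number of tested genes in brackets. Each point is 1 gene, vertical lines are list medians, and the star marks Hscb, the only gene with an unadjusted p under 0.05. List medians lie between -0.29 and 0.12.

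The genes most like Hspa1a and Hspa8 across the 6 libraries were found by the root mean square (RMS) difference of log2 CPM, after each gene's mean was subtracted, over 16327 other genes. For Hspa1a these were Pibf1 (0.06), Gm5113 (0.07), Srp54b (0.08), Srp54c (0.09) and Dio2 (0.10), against an RMS of Hspa1a itself of 0.25. For Hspa8 they were Ptdss1 (0.03), Tmem177, Cisd2, Srpr and Gars (0.04), against 0.12 for Hspa8 itself. Among the 10 genes the nearest pair was Hsp90aa1 and Hspa8, at 0.11, against an RMS of 0.07 for Hsp90aa1 itself and 0.12 for Hspa8. Hsp90aa1 thus lay nearer to its own mean than to Hspa8. For Bag3, added after its values were seen, the nearest were Afap1l2 (0.07), Itpkb (0.09), Metrn (0.11), Kctd9 and Sbk1 (0.14 each), against 0.69 for Bag3 itself. Each of these 5 was highest in WT replicate 1, as Bag3 was. Their selection by nearness to Bag3, which lay above its own mean only in that library, already fixes this. As an example, Itpkb reached 1883 normalized counts in that library, against 504 to 708 elsewhere.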

How the data were processed

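Total RNA of 3 WT and 3 Sgo1-/+ mice was sequenced in paired reads of 150 bases on an Illumina MiSeq. By the study's methods it came from the cerebrum. With the Strand NGS software the authors aligned the reads to mm10, and they deposited an estimated count per Ensembl gene and library, without normalization, between 47.4 and 48.6% of them not whole. The submitters' processing notes also name BWA and edgeR. The Ensembl release and any use of strand in counting are not given in the sources used here. The authors also deposited log2 values, DESeq-normalized and centred on each gene's median, which entered 1 alternative only. The deposited fold change columns (a signed score, its log2 value and an unsigned ratio), the authors' own comparison, entered no fit. They served only to tie the columns to the groups.

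Columns were tied to samples by brain number, by the header and direction of the deposited fold change, and by the sexes in the labels. Estimated counts were rounded and compared with edgeR 4.0.16 (TMM, default filter on low counts, quasi-likelihood test, no covariates, Benjamini-Hochberg adjustment over 16337 genes, threshold 0.05), checked on simulated counts. Intervals are 95%. For single values an exact permutation test, two-sided, ran through all 20 groupings. CPM per kilobase uses exon lengths of GENCODE, merged over all transcripts of a gene, in which 36308 of the 38087 gene IDs were found. At this depth a count of 0 allows up to 3 counts, for counting error only. Replicate pairs all differed beyond sampling noise. The 10 genes and all lists were chosen with earlier results of these data known. In the lists, genes with an unadjusted p under 0.05, or else the gene farthest from 0, are named, with constitutive paralogs and the 5 genes nearest to Hspa1a and to Hspa8. Alternatives were DESeq2 1.42.0, edgeR's likelihood ratio test, limma 3.58.1 on log2(count + 1) after DESeq scaling, the size factors of DESeq2, no filter on low counts or at least 10 in every library, a term for sex, a replicate block, females only and each library left out. Limma on the authors' log2 values and the sum of Hspa1a and Hspa1b were added after seeing the data.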

Additional observations from a re-analysis of the deposited data

Results flagged for a closer look

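Hspb1 and Bag3 stood out in a fit with an interaction of genotype and sex, although with 1 male in each group this is no test of sex. The Sgo1-/+ effect in males minus that in females was -2.443 on the log2 scale for Hspb1 (edgeR's quasi-likelihood test, adjusted p = 0.048) and -2.078 for Bag3 (adjusted p = 0.031), and 3.67% of all genes (600 of 16337) passed in that fit. The WT male is WT replicate 1, the library that stands apart, so sex and that library cannot be told apart, and the values below are those of single male libraries. In the males Bag3 had 391.7 normalized counts in WT and 117.5 in Sgo1-/+, and Hspb1 had 139.98 and 42.6. In the females Bag3 had means of 96.6 in WT and 122.6 in Sgo1-/+, and Hspb1 of 44.6 and 74.0 (n = 2 each). For the other 8 genes the interaction had adjusted p-values between 0.243 and 0.881 in the same edgeR test.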

How the results depend on the processing

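In none of the 16 alternative fits over all genes did any of the 10 genes, or of the 8 further lists, pass the adjusted threshold. Of 161 alternative log2 fold changes of the 10 genes, 148 kept their direction and 13 reversed. In females only, these were Hspa1b at -0.096, Dnajb1 at -0.052, Hspb1 at 0.73 (edgeR unadjusted p = 0.040, against 3.51% of all genes under 0.05 there) and Bag3 at 0.35. With 1 library left out they were Hspa1b -0.10, Hspb1 0.51 and Bag3 0.32 (WT replicate 1), Hspa1a 0.018 and Hsf1 -0.082 (WT replicate 2), Hspa1a 0.077 (Sgo1-/+ replicate 1), Dnajb1 -0.0036 (Sgo1-/+ replicate 2) and Hsf1 -0.036 (Sgo1-/+ replicate 3). Over all such fits Hspa1a lay between -0.24 and 0.077, Hspa1b between -0.10 and 0.34, Dnajb1 between -0.0036 and 0.26, Hspb1 between -0.55 and 0.51, Bag3 between -1.03 and 0.32, and Hsf1 between -0.082 and 0.21. Summed with Hspa1b, Hspa1a gave 0.060. The heat-inducible median lay between -0.11 and 0.090 with 1 library left out, and was above 0 without WT replicate 1, WT replicate 2 or Sgo1-/+ replicate 1. Groups that did not overlap were found for 0 to 2 of the 10 genes with 1 library left out (13% to 23.9% of all genes) and for 3 in females. Over all genes, DESeq2's Wald test called 3, edgeR's likelihood ratio test 2, females only 1, and fits without 1 library 0 to 1. The cause of these changes was not tested. At an unadjusted p under 0.05, 333 genes became 563 with no filter on low counts, 578 in females, and 626 and 1040 without WT replicates 1 and 3.

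Replicate numbers did not pair the samples: deviations from the group means correlated at -0.15, 0.01 and -0.21 for numbers 1 to 3. With the replicate block, 0 genes passed the adjusted threshold, 280 had an unadjusted p under 0.05, and the heat-inducible and constitutive medians were -0.07 and 0.11. Bag3 was then at -0.35 and Hspb1 at -0.10. With sex as a covariate they were at -0.35 and -0.07, with limma on DESeq-normalized counts at -0.35 and -0.09, and with limma on the authors' values at -0.35 and -0.10, smaller by over 1.5 times than the -0.69 and -0.26 of the 6-library fit with no covariates.

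Precision is limited by spread more than depth: the biological coefficient of variation was 25.9%, and 17.6% without WT replicate 1. Hspb1, Hspa1a, Hspa1b and Bag3 rest on 42 to 389 estimated counts per library.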

Other observations

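Lists for other stress responses were read in the same edgeR fit, for comparison with the heat shock genes. Of 15 immediate early genes, which follow neuronal activity, all had a log2 fold change above 0 with a median of 1.02, 4 had an unadjusted p under 0.05 (0.808% of all genes had one in that direction) and none passed the adjusted threshold. WT replicate 1 was the lowest library for 9 of them, against 30.4% of all genes. Without it 14 were above 0, with a median of 0.69. Of 10 glucocorticoid response genes all were above 0, with a median of 0.20 and none with an unadjusted p under 0.05, and 7 without WT replicate 1 (median 0.16). The heat-inducible chaperones had 3 genes above and 4 below 0 in the same libraries. The difference between these lists was not tested.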
